A study of Homo sapiens with 4 samples.

Results

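The lysosomal gene set described here holds 36 genes that code for lysosome membrane proteins, hydrolases with their cofactors, sterol carriers, the calcium channel MCOLN1, the transcription factor TFEB and subunits of the proton pump. Members were found by symbol, as rows that the platform annotation pairs with exactly 1 gene, and a gene took the mean of its rows. All 36 were found, on 38 rows, out of 18377 named genes. NEU1 was the only member with more than 1 row.

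RNA came from HuCCT1, an established human cholangiocarcinoma (bile duct cancer) cell line, and was measured on 4 Affymetrix Human Gene 1.0 ST arrays. By the labels, 1 array each held RNA of untreated cells, of cells under VPA, of cells under GEM, and of cells under both agents (GEM_VPA, here also called the combination). VPA usually stands for valproic acid, which inhibits histone deacetylases, and GEM for gemcitabine, a nucleoside drug that blocks DNA synthesis. All groups are the same line, and doses, exposure times and culture batches were not given in the sources used here. Each condition had 1 array, so there is no replicate spread and no test of a single comparison, and the precision of every value is limited by the small number of arrays. Levels and ratios are on the log2 scale, where 1 is a 2-fold difference. In such bulk RNA, fewer cells that express a gene and less RNA per cell cannot be told apart.

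Lysosomes are acidic organelles that break down proteins, glycans, lipids and whole organelles delivered by endocytosis and autophagy. A proton pump, the V-ATPase, acidifies the lumen, hydrolases act there, and heavily glycosylated membrane proteins line the inner face. TFEB, a basic helix-loop-helix factor, is known to enter the nucleus when nutrients are short and to bind the CLEAR motif in promoters of lysosomal genes. Rapidly growing carcinoma cells rely on lysosomes for amino acid recycling, and several cathepsins are known to be secreted by tumours.

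The 4 arrays fell into close pairs, which touches every result below. Over all rows the untreated and combination arrays correlated at 0.996 and the VPA and GEM arrays at 0.996, and the other pairs at 0.984 to 0.987. Over the 36 lysosomal genes the median absolute difference was 0.13 for the untreated with the combination array, 0.18 for the VPA with the GEM array, and 0.28 to 0.42 between the other pairs. No array could be left out, since each is the only one of its condition, and no labelled target gene allowed a check of the labels. Biliary epithelial markers were high, with all 6 measured (KRT7, KRT19, KRT8, KRT18, EPCAM and SOX9) at or above the median of all rows on every array. They also differed between the arrays, with a summed level of 15.41 untreated, 15.82 with VPA, 15.82 with GEM and 15.37 with the combination. KRT7, a keratin of bile duct cells, was at 9.53 untreated, 11.50 with VPA, 11.14 with GEM and 8.93 with the combination, past 2-fold in every comparison but the combination over untreated (-0.60). KRT19, KRT8, KRT18 and SOX9 had ratios of 0.39 to 0.67 with each single drug, and EPCAM -0.15 with VPA and -0.19 with GEM. The part of these shifts in the lysosomal values was not tested. Of 10 measured macrophage and leukocyte markers, only TYROBP reached that median on every array, and PTPRC, CD163, FCER1G and AIF1 lay below the 25th percentile on every array.

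Of the 36 members, 32 lay at or above the array median of all rows on every array. The proton pump subunit ATP6V0D2, known from osteoclasts, and the antigen-processing protease CTSS lay below the 25th percentile on all 4 arrays. CTSK and CTSF lay between the 25th percentile and the median. No detection call was used here for these 4 genes, so counts past a fold limit rest on the other 32, while counts of signs and of array order include all 36.

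Lysosomal transcripts were on the whole higher on the VPA array than on the untreated array, somewhat higher on the GEM array, and close to untreated on the combination array. The median log2 ratio over the 36 members was 0.42 for VPA over untreated, beside -0.01 for all 18377 genes. It was 0.23 for GEM over untreated, beside -0.01 for all genes, and 0.10 for the combination over untreated, beside -0.03. With VPA, 31 of 36 members were above 0 (86.1%, against 48.1% of all genes), and with GEM 26 of 36 (72.2% against 48.6%). With each array centred on its median these counts were 27 and 23, against 39.1% and 41.3% of all genes. With the combination, 29 of 36 were above 0 (80.6% against 42.5%), and the highest member ratio was 0.52. Ratios of genes in general were smaller in that comparison. Among genes whose higher value reached the array median, the 75th percentile was 0.09 there, 0.19 with VPA and 0.18 with GEM. The member median lay above that percentile in all 3 comparisons. The 3 comparisons share the untreated array, so a low or high value there enters all of them.

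A gene was counted as different at a ratio of at least 2-fold with its higher value at or above that array's median. By this rule 2 of 32 members were higher with VPA, GM2A and SMPD1, against 1.90% of 11611 genes, and 0 were lower, against 2.09%. In the VPA comparison 4.00% of genes passed in either direction. At a limit of 1.5-fold, 11 of 32 members were higher with VPA (34.4%), against 6.64% of genes, and 0 were lower, against 10.4%. GEM over untreated gave 0 of 32 members at 2-fold, where 4.49% of genes passed (1.48% higher and 3.01% lower). At 1.5-fold GEM gave 4 members higher (12.5%, against 5.95% of genes) and 1 lower (3.12%, against 11.1%). The combination over untreated gave 0 members at 2-fold, where 0.148% of genes passed (0.122% higher and 0.0261% lower). It gave 0 members at 1.5-fold, where 1.60% passed (1.24% higher and 0.366% lower). After quantile normalization of the columns again, CD68 and NEU1 also passed 2-fold with VPA, making 4 members, and CD68 passed with GEM.

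**Figure D1:**
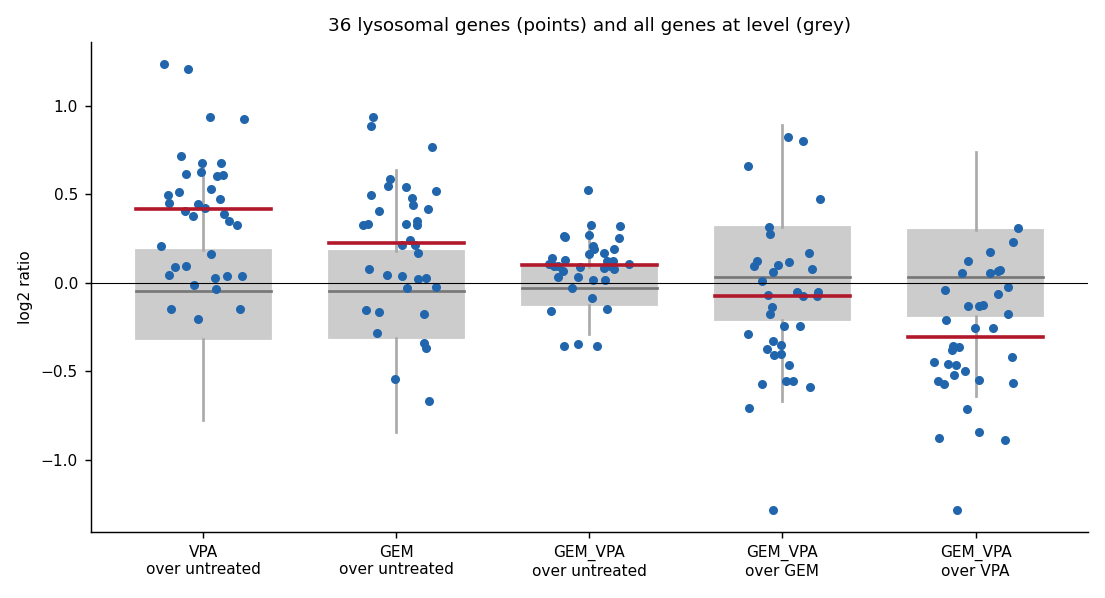
Log2 ratio (vertical axis) of the 36 lysosomal genes in 5 comparisons of 1 array each; points are genes, spread sideways only for visibility, and red lines are their medians. Grey boxes span the 25th to 75th percentile of all genes at level, grey lines the 5th to 95th, and the member medians run from 0.42 for VPA over untreated to -0.30 for the combination over VPA.

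Promoters were examined for the letters that TFEB and its relatives are known to bind. RefSeq windows of GRCh38.p14, from 250 bases before to 50 bases after a start site, were at hand for 26 of the 36 members, in 38 windows because some genes have several starts. The E-box CACGTG, the CLEAR core TCACGTGA and the full CLEAR motif (that core with a G before and a C after it) were searched. Each reads the same on both strands, and each longer motif contains the shorter ones. GAA and MCOLN1 held the full motif (7.69% of 26 members, against 0.421% of 27305 genes). ATP6V0D1, CTSA, GAA, LAMP1 and MCOLN1 held the core (19.2% against 1.18%). CACGTG was present in 9 members, which adds CD63, CTSD, CTSF and NEU1 (34.6% against 8.77%). By window, the full motif was in 2 of the 38 member windows, the core in 5 and the E-box in 9. Over all 35116 windows the shares were 0.353%, 0.980% and 7.26%. CLEAR is already known from promoters of lysosomal genes, so higher shares in this list are no independent evidence and were not tested. The stretches of the 5 genes with the core are shown because these promoters carry the letters most directly tied to TFEB. They end before the start site, read 5′ to 3′ on the gene's strand, and have each match in capitals.
GAA, chr17:80101488-80101572, plus strand: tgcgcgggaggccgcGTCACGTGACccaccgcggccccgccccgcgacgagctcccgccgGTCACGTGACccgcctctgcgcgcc
MCOLN1, chr19:7522567-7522623, plus strand: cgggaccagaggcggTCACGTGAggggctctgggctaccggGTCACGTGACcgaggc
LAMP1, chr13:113297032-113297232, plus strand: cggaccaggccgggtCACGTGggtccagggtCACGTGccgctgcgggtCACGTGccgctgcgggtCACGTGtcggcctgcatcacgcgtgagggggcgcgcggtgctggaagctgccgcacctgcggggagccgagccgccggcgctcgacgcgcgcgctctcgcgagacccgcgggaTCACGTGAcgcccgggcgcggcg
CTSA, chr20:45891278-45891331, plus strand: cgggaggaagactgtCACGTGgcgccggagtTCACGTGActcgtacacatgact
ATP6V0D1, chr16:67481195-67481232, minus strand: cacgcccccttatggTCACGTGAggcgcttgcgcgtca

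GAA thus has 2 full motifs, which begin 78 and 33 bases before its start, and MCOLN1 has a core 42 bases and a full motif 16 bases before its start. LAMP1 has 4 E-boxes, the first of which begins 192 bases before its start, then a core 29 bases before it, and a further core that spans the start is not printed. Over untreated, the 9 members with CACGTG had a median log2 ratio of 0.44 with VPA and 0.40 with GEM. The 17 members without it had medians of 0.39 and 0.08. The medians with VPA were thus close, and those with GEM lay further apart. With GEM 9 of 9 members with the E-box were above 0, and 9 of 17 without it. The range with the E-box (0.02 to 0.59) lay inside that without it (-0.66 to 0.93). For the combination over GEM, which shares the GEM array, the medians were -0.33 with the E-box and 0.10 without it. The difference between these sets was not tested. A match is a description of the letters and not a bound site.

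The 3 members that passed the 2-fold rule in any comparison, CD68, GM2A and SMPD1, had none of these letters in their windows. The 150 bases before each start are shown so that the genes with the largest differences can be read beside those with the motif.
CD68, chr17:7579488-7579637, plus strand: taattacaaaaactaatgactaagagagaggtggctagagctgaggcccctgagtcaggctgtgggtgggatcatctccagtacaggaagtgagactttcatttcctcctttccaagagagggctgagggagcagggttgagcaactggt
GM2A, chr5:151253035-151253184, plus strand: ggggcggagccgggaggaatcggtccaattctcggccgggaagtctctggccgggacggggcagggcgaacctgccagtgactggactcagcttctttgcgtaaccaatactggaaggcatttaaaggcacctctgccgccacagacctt
SMPD1, chr11:6390324-6390473, plus strand: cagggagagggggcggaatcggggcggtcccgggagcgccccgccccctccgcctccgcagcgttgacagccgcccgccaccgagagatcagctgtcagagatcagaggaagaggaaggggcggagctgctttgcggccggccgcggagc

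TFEB itself (Entrez 7942) was at 8.19 on the untreated array, 8.64 with VPA, 8.53 with GEM and 8.28 with the combination. Both single-drug arrays were thus above the other arrays, by ratios of 0.45 and 0.33 over untreated, under the 1.5-fold limit. MCOLN1, a cation channel that releases calcium from lysosomes and is known to act upstream of TFEB, was at 10.59 untreated, 10.96 with VPA, 10.61 with GEM and 10.71 with the combination. Only the VPA array stood off from the rest, at 0.38 over untreated, while GEM was at 0.03.

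Among the 5 membrane proteins the median ratio was 0.50 with VPA and 0.33 with GEM. CD68 (Entrez 968), a heavily glycosylated relative of the LAMP proteins that is abundant in macrophages, was at 10.05 on the untreated array, 10.99 with VPA, 10.98 with GEM and 9.70 with the combination. The single-drug arrays were about equal and the combination was the lowest of the 4. Ratios of CD68 were 0.94 with VPA and 0.93 with GEM over untreated, just under 2-fold, and -0.35 for the combination. The combination was 2.43-fold lower than either drug alone (-1.28 in both), a lower ratio than in 99.5% of genes.

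The macrophage and leukocyte markers were read beside CD68. LYZ, a lysozyme of myeloid and some epithelial cells, was at 7.41 untreated, 7.86 with VPA, 8.40 with GEM and 6.69 with the combination, so it was lowest on the same array as CD68. CD14, CSF1R and ITGAM lay between percentile 36.8 and percentile 42.0 of all rows on every array, with ratios from -0.24 to 0.09. The summed level of the 10 markers was 10.51 untreated, 10.66 with VPA, 10.81 with GEM and 10.39 with the combination. PTPRC, the pan-leukocyte marker, was at 5.21 to 5.34 on all arrays. The part of such cells in the CD68 values was not tested.

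LAMP1, a main structural glycoprotein of the membrane, was at 11.54 untreated, 12.03 with VPA, 11.94 with GEM and 11.62 with the combination. Its single-drug arrays were higher than both others, at ratios of 0.50 and 0.40. LAMP2, which also serves chaperone-mediated autophagy, was at 0.71 with VPA (1.64-fold), 0.33 with GEM and 0.19 with the combination. The tetraspanin CD63 had ratios of 0.35, 0.21 and 0.14. SCARB2, the receptor that carries glucocerebrosidase to lysosomes, did not share this order, with 0.04 for VPA, -0.18 for GEM and 0.09 for the combination.

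**Figure D2:**
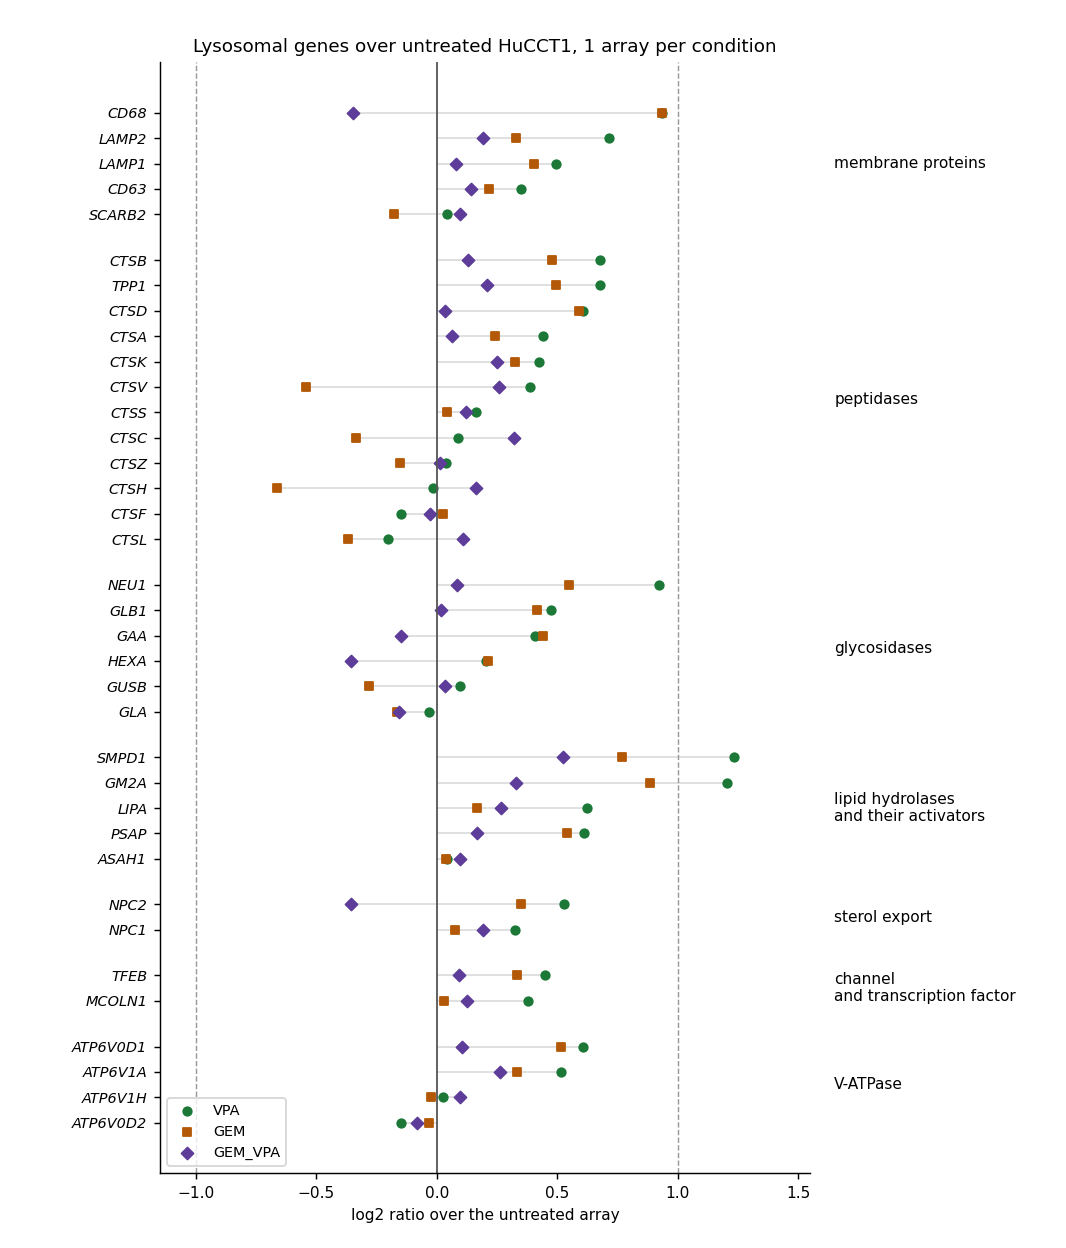
Log2 ratio over the untreated array (horizontal axis) for each of the 36 genes, grouped by role and ordered by the VPA ratio; circles are VPA, squares GEM and diamonds the combination, 1 array each, and dashed lines mark 2-fold. GM2A (1.20) and SMPD1 (1.23) lie beyond 2-fold with VPA, and CTSH (-0.66) has the lowest GEM ratio.

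Peptidases were divided. Of the 12, 9 were above 0 with VPA and 7 with GEM, with medians of 0.28 and 0.03. The aspartic protease CTSD and the cysteine protease CTSB, which are bulk degraders, had VPA ratios of 0.61 and 0.68, and GEM ratios of 0.59 and 0.48. TPP1, which trims tripeptides from protein ends, was at 0.68 and 0.50. CTSD, CTSB and TPP1 were all at least 1.5-fold higher with VPA, and CTSD also with GEM. On the combination array the ratios of CTSD, CTSB and TPP1 over untreated were 0.03, 0.13 and 0.21.

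CTSA, a serine carboxypeptidase that also protects GLB1 and NEU1 from degradation, was at 12.56 untreated, 13.00 with VPA, 12.80 with GEM and 12.62 with the combination. It followed the same order as CTSB with smaller ratios, 0.44 and 0.24. CTSK, a collagen-degrading protease below the array median, had ratios of 0.42, 0.33 and 0.25. CTSS was at 5.50, 5.66, 5.54 and 5.62 on the untreated, VPA, GEM and combination arrays, all near the floor of the arrays. CTSF, also below the array median, had ratios between -0.15 and 0.02.

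A smaller set of cysteine cathepsins was lowest on the GEM array. CTSH, an aminopeptidase, was at 9.49 untreated, 9.48 with VPA, 8.83 with GEM and 9.65 with the combination. Only its GEM array stood apart, at -0.66 over untreated, and it was the only member at least 1.5-fold lower with GEM. CTSL, an endopeptidase, was at 9.94 untreated, 9.74 with VPA, 9.57 with GEM and 10.05 with the combination. In the deposited values CTSH and CTSL were the only members whose single-drug arrays were both below the other arrays. For CTSH this rests on a VPA ratio of -0.01, which became 0.03 when the columns were renormalized by quantiles. CTSC, which activates serine proteases of immune cells, was at 11.21 untreated, 11.30 with VPA, 10.87 with GEM and 11.53 with the combination. The low GEM value of CTSC had its counterpart in CTSV, a close relative of CTSL, which was at -0.54 with GEM but 0.39 with VPA and 0.26 with the combination. CTSZ, a carboxypeptidase, had ratios between -0.15 and 0.04.

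The 6 glycosidases had median ratios of 0.31 with VPA and 0.31 with GEM, and -0.07 with the combination. NEU1, the sialidase that removes terminal sialic acids, was at 0.92 with VPA (1.89-fold) and 0.55 with GEM, and at 0.08 with the combination. Its 3 rows gave 0.91, 0.94 and 0.91 with VPA and 0.54, 0.57 and 0.54 with GEM. GLB1, lysosomal beta-galactosidase, was at 10.66 untreated, 11.14 with VPA, 11.08 with GEM and 10.68 with the combination. Single-drug arrays were again above the others, at ratios of 0.47 and 0.42. GAA, which digests glycogen, had ratios of 0.41 and 0.44, and -0.15 with the combination.

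HEXA, the alpha subunit of hexosaminidase A, was at 9.63 untreated, 9.83 with VPA, 9.84 with GEM and 9.27 with the combination. Its combination array was the lowest, and -0.36 was the lowest ratio of any member for the combination over untreated. GUSB, beta-glucuronidase, was at 9.28 untreated, 9.38 with VPA, 9.00 with GEM and 9.32 with the combination, so only GEM was lower. GLA, alpha-galactosidase A, lay between -0.16 and -0.03 in all 3 comparisons with untreated. GUSB is also named on 7 rows together with other genes, which were not used, and its own row may share probes with those copies.

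Lipid hydrolases and their cofactors had the highest medians of the 7 role groups, 0.62 with VPA and 0.54 with GEM over 5 genes, all above 0 in both. SMPD1 (Entrez 6609), acid sphingomyelinase, was at 8.64 untreated, 9.88 with VPA, 9.41 with GEM and 9.17 with the combination. All drug arrays were above untreated, in the order VPA, GEM, combination. The VPA array was 2.35-fold higher than untreated, a ratio exceeded by 0.669% of all genes, and the combination was 1.44-fold higher, the highest member ratio of that comparison. GM2A (Entrez 2760), the cofactor that lifts GM2 ganglioside out of membranes for hexosaminidase A, was at 11.07 untreated, 12.28 with VPA, 11.96 with GEM and 11.40 with the combination. Its order over the arrays was that of SMPD1, and its VPA ratio of 1.20 (2.30-fold) was exceeded by 0.724% of all genes. GEM over untreated was 0.88 for GM2A and 0.77 for SMPD1, under the 2-fold limit.

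PSAP, the precursor of the saposins that assist sphingolipid breakdown, was at 11.89 untreated, 12.50 with VPA, 12.43 with GEM and 12.06 with the combination. Its single-drug arrays were close to each other, at 0.61 and 0.54. LIPA, the acid lipase that frees cholesterol from its esters, was at 0.62 with VPA but 0.17 with GEM and 0.27 with the combination. ASAH1, acid ceramidase, had ratios of 0.04, 0.04 and 0.10, below those of the other 4 genes of its group.

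NPC2, a soluble carrier that hands cholesterol to NPC1, was at 12.85 untreated, 13.38 with VPA, 13.20 with GEM and 12.50 with the combination. The combination array was the lowest and both single-drug arrays were above untreated. NPC1, the membrane partner, was at 10.70 untreated, 11.02 with VPA, 10.77 with GEM and 10.89 with the combination. All its drug arrays were above untreated by at most 0.32. For the combination over untreated, NPC2 was at -0.36 and NPC1 at 0.19, so the partners had opposite signs there.

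Of the 4 proton pump subunits, ATP6V0D1 of the membrane sector was at 11.99 untreated, 12.59 with VPA, 12.50 with GEM and 12.09 with the combination. Its single-drug arrays stood above the other arrays, at 0.61 (1.52-fold) and 0.52. ATP6V1A, the catalytic subunit of the cytosolic sector, was at 0.51 with VPA, 0.33 with GEM and 0.26 with the combination. ATP6V1H, a regulatory subunit of that sector, had ratios of 0.03, -0.02 and 0.10. ATP6V0D2, the alternative to ATP6V0D1, was at 4.96, 4.81, 4.93 and 4.87 on the untreated, VPA, GEM and combination arrays, near the floor.

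**Figure D3:**
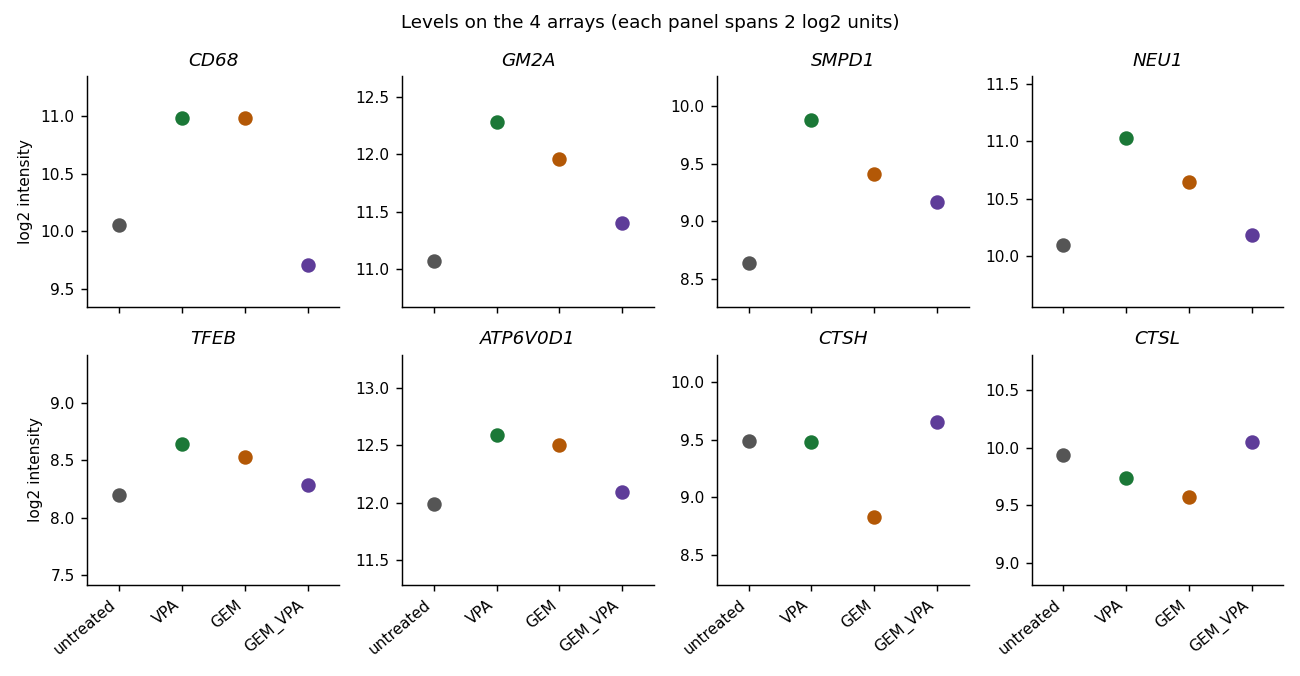
Log2 intensity (vertical axis, 2 log2 units in each panel) of 8 lysosomal genes on the untreated, VPA, GEM and combination (GEM_VPA) arrays; each point is 1 array. CD68 runs from 9.70 on the combination array to 10.99 on the VPA array, and CTSH is lowest on the GEM array at 8.83.

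The pattern over the arrays was counted for all 36 members. In 20 of them (55.6%) the VPA and GEM arrays were both above the untreated and combination arrays, against 30.6% of all genes. The reverse held for 2 members (5.56%), against 30.6% of all genes. The VPA array was the highest of the 4 for 25 members (69.4% against 23.2% of genes), and the untreated array for GLA and ATP6V0D2. The VPA array was above the GEM array for 32 of 36 members, against 47.9% of genes, with CTSF, GAA, HEXA and ATP6V0D2 as the exceptions. The median difference between these arrays was 0.17 for the members and -0.01 for all genes.

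The combination was next set against each drug alone. Each ratio is 1 array against 1 array from different close pairs, so the part of the added drug in it was not tested. Over VPA the median of the members was -0.30, beside -0.01 for all genes, with 8 of 36 above 0 (22.2%, against 48.2% of all genes). Among genes whose higher value reached the array median, it was -0.37 for the 32 members and 0.03 for all, with 54.0% of all above 0. At 2-fold, 1 of 32 members was lower, CD68, against 1.68% of genes, and 0 were higher, against 1.48%. In all 3.16% of genes passed at 2-fold and 15.1% at 1.5-fold. At 1.5-fold 5 members were lower with the combination (15.6%, against 5.91% of genes) and 0 higher (against 9.17%), the lower ones being CD68, NEU1, GM2A, NPC2 and SMPD1. NPC2 and GM2A were at -0.88, NEU1 at -0.84 and SMPD1 at -0.71. The highest ratio over VPA was 0.31, for CTSL.

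Over GEM the median of the members was -0.07, beside -0.02 for all genes, with 14 of 36 above 0 (38.9%, against 47.2% of all genes). Among genes whose higher value reached the array median, it was -0.15 for the 32 members and 0.03 for all, with 53.2% of all above 0. CD68 was again the only member past 2-fold, 1 of 32 lower, against 1.78% of genes, and 0 were higher, against 3.60%. In all 5.38% of genes passed. At 1.5-fold 3 members were lower (9.38%, against 6.56% of genes) and 3 higher (9.38%, against 11.9%), shares near the background. The lower ones were CD68, NPC2 (-0.71) and GAA (-0.59), and the higher ones the cathepsins CTSH (0.83), CTSV (0.80) and CTSC (0.66). All 3 cathepsins were lowest on the GEM array, which both GEM comparisons share. CTSL and CTSZ were lowest there too, but at 0.48 and 0.17 for the combination over GEM they did not reach 1.5-fold.

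The change with each drug was also set side by side without and with the other drug, in pairs that share no array. The 20 members that were higher with VPA alone and lower when VPA was added to GEM (55.6%) compare with 34.7% of all genes. For GEM, 24 members were higher alone and lower when GEM was added to VPA (66.7%), against 38.2% of all genes. The 20 are the same genes whose single-drug arrays were both above the other arrays, and the 24 include them. These counts thus restate that order of the arrays and are no further support for it. VPA was higher in both pairs for 11 members (30.6% against 13.4%), SCARB2, CTSC, CTSS, CTSV, CTSZ, GUSB, NPC1, LIPA, ASAH1, MCOLN1 and ATP6V1H. Within these pairs LIPA was at 0.62 and 0.10, CTSV at 0.39 and 0.80 and MCOLN1 at 0.38 and 0.10. Others of the 11 were close to 0 with VPA alone, ATP6V1H at 0.03 and CTSZ, ASAH1 and SCARB2 at 0.04. Centring each array on its median moves that comparison by -0.05, which puts these genes below 0. CTSS lay near the floor.

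**Figure D4:**
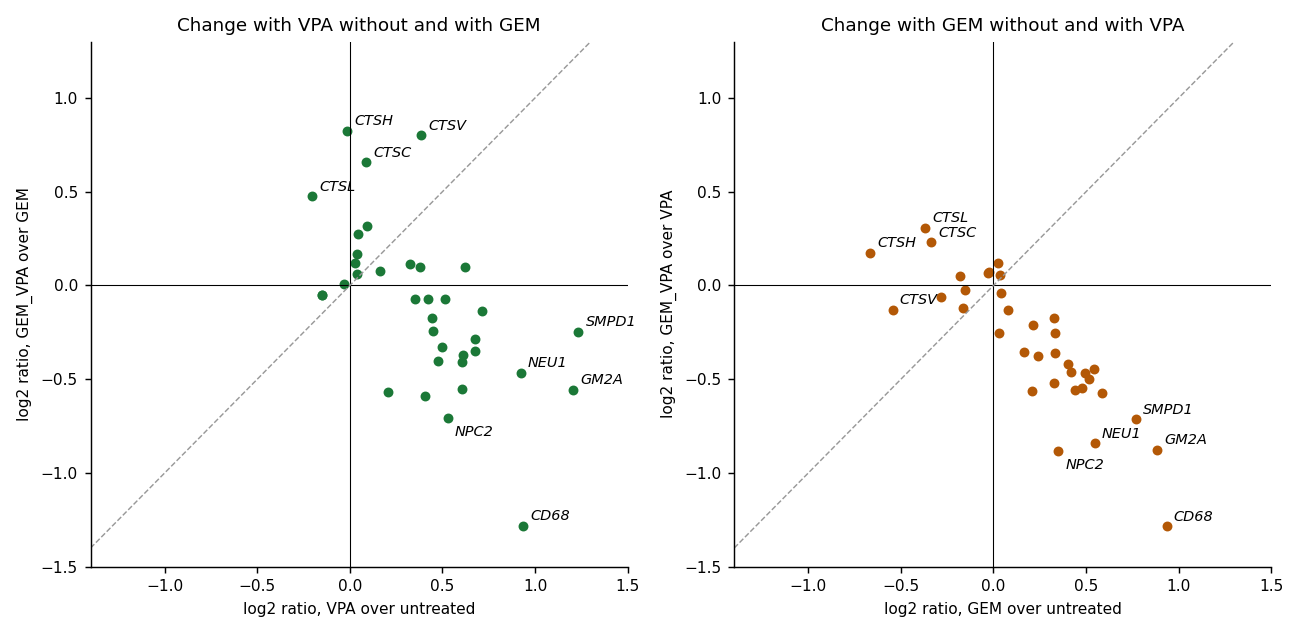
Log2 ratio for each drug without the other drug (horizontal axes, over untreated) and with it (vertical axes, combination over the other drug alone), for VPA on the left and GEM on the right; points are the 36 genes and the dashed line marks equal changes. CD68 (0.94 and -1.28 with VPA) lies furthest below the line, and CTSH (-0.01 and 0.83 with VPA) above it.

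The departure from additivity, which is the change with VPA in the presence of GEM minus that in its absence, sums up these differences for each gene. Its median was -0.55 over the 36 members, beside -0.01 over all genes, and 12 of 36 were above 0, against 49.1% of all genes. Among genes that reached the array median on any array, it was -0.66 for the 32 members and 0.07 for all, with 54.3% of all above 0. The lowest values were -2.22 for CD68, -1.76 for GM2A and -1.48 for SMPD1, and the highest 0.84 for CTSH, 0.68 for CTSL and 0.57 for CTSC. By role the median was -0.99 for lipid hydrolases and cofactors, -0.83 for glycosidases, -0.82 for membrane proteins and 0.01 for peptidases. No residual is left in a layout of 1 array per condition, so the error of these values could not be estimated. Each value carries the noise of every array.

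An additive model of both drugs was fitted with limma on 11808 genes, and gives the mean change with a drug over its 2 pairs. Its 1 residual degree of freedom per gene takes up both the departure and the array noise. For VPA, 0 of 32 members and 0 genes (0%) had a Benjamini-Hochberg adjusted p at or below 0.05. An unadjusted limma p under 0.05 was found for 22 genes (0.186%) and 0 members. At so low a share of all genes, 0 of 32 does not set the members apart. For GEM, 0 members and 0 genes (0%) passed, and 0 genes had an unadjusted p under 0.05. The lowest member p was that of CTSV for VPA, with an average effect of 0.59 (SE 0.28), an unadjusted p of 0.0995 and an adjusted p of 1.00 in limma. SMPD1 had an average VPA effect of 0.49 (SE 0.45) and CD68 one of -0.17 (SE 0.60), since the pairs had opposite signs.

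Other genes of the lysosomal pathway were read from lists that do not overlap the members. Of 18 measured further V-ATPase subunits, 15 were at level in the comparisons of each drug with untreated. Of these, 1 was at least 2-fold higher with VPA (1.90% of all genes were) and with GEM (1.48% of all genes), and 0 were lower. Medians over the 18 were 0.19 and 0.12. This was ATP6V0A1, a membrane-sector subunit, at 10.82 untreated, 12.19 with VPA, 12.00 with GEM and 11.24 with the combination. Its drug arrays were all above untreated, in the order also seen for GM2A.

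Of 21 measured further hydrolases, 2 of 17 at level were 2-fold higher with VPA (1.90% of all genes were) and 3 of 16 with GEM (1.48% of all genes), and 0 were lower in either. Medians over the 21 were 0.21 and 0.47. The combination had 3 of 16 at level 2-fold lower than GEM alone (1.78% of all genes were) and 3 of 17 lower than VPA alone (1.68% of all genes). ARSA, arylsulfatase A, was at 7.92 untreated, 9.08 with VPA, 9.07 with GEM and 7.86 with the combination. FUCA1, alpha-fucosidase, was at 10.23, 11.34, 11.39 and 10.29 on the same arrays. For both enzymes the combination array was within 0.07 of untreated. IDUA, alpha-iduronidase, had ratios of 0.79 with VPA, 1.31 with GEM and -0.35 with the combination.

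Of 17 further membrane proteins, 2 of 16 at level were 2-fold higher with each drug alone, where 1.90% of all genes were with VPA and 1.48% with GEM. LAMP3, a LAMP relative, had ratios of 1.19 with VPA, 1.62 with GEM and 0.64 with the combination, and SIDT2, a transporter-like membrane protein, 1.10, 1.23 and 0.03. No gene of the enzyme sorting, cystatin and TFEB-relative lists passed 2-fold in any comparison, where 0.148% to 5.38% of all genes passed. At level were 8 sorting genes, 4 of 5 cystatins and 1 of 3 TFEB relatives. These are too few to set 0 apart from those shares. The 8 measured sorting genes had medians of 0.08 with VPA and 0.08 with GEM, with 5 and 4 above 0. At 1.5-fold 2 were higher with VPA (6.64% of all genes were) and 1 lower (10.4%). With GEM 1 was higher (5.95%) and 0 lower (11.1%). The 2 genes with the largest ratio in size in any comparison were GNPTG, a subunit of the enzyme that starts the mannose-phosphate tag (0.64 with VPA and 0.67 with GEM), and the tag receptor IGF2R (0.65 and 0.56). CST3, cystatin C, a secreted inhibitor of cysteine cathepsins, had a ratio of 0.63 with either drug. All 5 cystatins were above 0 with both. CSTA, an intracellular cystatin, was at 0.42 and 0.13. TFE3, a relative of TFEB that binds the same letters, was at 0.42 with VPA, 0.53 with GEM and -0.22 with the combination. TFEC, of the same family, was at 0.58, 0.86 and -0.04, at levels from 5.96 to 6.86 that lie below the array medians.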

How the data were processed

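RNA of 4 HuCCT1 samples, 1 array per condition, was measured on Human Gene 1.0 ST arrays. The deposited values are log2 intensities. The authors used GeneSpring GX 11.5, according to the series text in the labels, and RMA is named in the submitters' processing notes. RMA equalises the arrays and compresses low values, so array-wide shifts cannot be seen. No genome build was given in the sources used here. Of 28869 rows, 19310 had 1 gene symbol, 1752 several and 7807 none in the platform annotation, and 19279 matched RefSeq by gene ID.

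Ratios are differences of log2 gene means. A gene counted at 2-fold only if the larger of its values reached the median of all rows on its array (an alternative used the 25th percentile). limma 3.58.1 in R 4.3.3 fitted both drugs additively, and Python 3.11.15 did the rest. The steps were tested on simulated data. For limma these held additive effects alone, so that test does not cover values with a departure from additivity. Named with all levels were members past 2-fold, extremes of ratio, departure or role-group level, and up to 4 genes past 2-fold per other list (otherwise the largest 2). NEU1 rows, LYZ and other ratios were added after their values were seen. Promoter windows came from RefSeq GRCh38.p14, and 10 members had no entry in that table. The members and lists were chosen with earlier results of these data known.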

Additional observations from a re-analysis of the deposited data

Results flagged for a closer look

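The changes that went one way with a drug alone and the other way with the second drug present were picked out where a 2-fold ratio was involved, and for the list medians. Each pair is 1 array against 1 array, so the difference between the pairs was not tested. The median change of the 36 lysosomal genes with VPA was 0.42 without GEM and -0.07 with it, a difference of -0.49. With GEM the median change was 0.23 without VPA and -0.30 with it, a difference of -0.53. CD68 had a VPA change of 0.94 without and -1.28 with GEM, and a GEM change of 0.93 without and -1.28 with VPA. For any gene both differences are the same quantity by construction, the departure from additivity, here -2.22. GM2A had a VPA change of 1.20 without and -0.56 with GEM, a difference of -1.76. For SMPD1 these were 1.23 and -0.25, a difference of -1.48.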

How the results depend on the processing

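Member medians in the 5 comparisons kept their sign and moved by at most 0.1 under renormalization by quantiles, centring of each array, 1 row per gene and members at level alone. The same held for the median departure under the first 3, which were added after the data were seen. With members at level alone the median departure was -0.66, in place of -0.55. Quantile normalization of the columns again gave 4 members at 2-fold with VPA, in place of 2, and 1 with GEM, in place of 0. At 1.5-fold the counts were 11 with VPA, 5 with GEM, 6 for the combination over GEM and 5 over VPA. At 3-fold 0 members passed with VPA, or for the combination over GEM or over VPA. Counts for the combination over untreated stayed at 0, as did the limma counts under all alternatives. In limma 0 genes of any kind passed in any setting, so its counts of 0 say nothing particular about the members. Of 285 alternative ratios of the 19 named members, 5 moved by over 0.1, all under renormalization by quantiles, and none that passed 2-fold changed sign. The 285 include the choice of 1 row per gene, which could not move these ratios because each named member has 1 row. Ratios near 0 turned sign for CTSH with VPA (-0.01 to 0.03, by quantiles) and, by centring, for MCOLN1 with GEM (0.03 to -0.01) and CTSS for the combination over VPA (-0.04 to 0.01). Centring moved the median of all genes by at most 0.06. No array can be left out with 1 per condition. No paired analysis was possible because no condition has more than 1 array. Signal near the array floor limits CTSS and ATP6V0D2.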

Other observations

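Autophagy genes and the lysosomal mTORC1 platform, which senses nutrients at the lysosome surface, were also read from lists that do not overlap the 36 members. Of 10 autophagy genes, all at level, 2 were at least 2-fold higher with VPA (1.90% of all genes were) and 1 with GEM (1.48% of all genes), and 0 were lower. GABARAPL1, which is attached to autophagosome membranes, was at 10.59 untreated, 11.97 with VPA, 11.70 with GEM and 10.86 with the combination. WIPI1, which binds early autophagosomes, was at 1.13 with VPA, 0.74 with GEM and 0.14 with the combination over untreated. Of 11 measured mTORC1 platform genes, all at level, 0 passed 2-fold over untreated in any condition. Of all genes 4.00% passed with VPA, 4.49% with GEM and 0.148% with the combination, so 0 of 11 is near the background. RRAGD, a Rag GTPase, was at 10.38 untreated, 10.40 with VPA, 9.54 with GEM and 10.66 with the combination. It was the only gene of its list past 2-fold in any comparison, at 1.13 for the combination over GEM (3.60% of all genes were 2-fold higher there).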
